A study of Rattus norvegicus with 48 samples.

Results

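The CA3 field of the hippocampus was compared between rats of the vinclozolin lineage and rats of the control lineage that had not been stressed. The arrays were assigned by their labels, CA3 NSt-Vin and CA3 NSt-Con, and are 6 of the 48 arrays of the series, 3 in each group. The rats were male outbred Sprague-Dawley rats of the F3 generation, killed at 120 days of age. Their F0 ancestors were pregnant females given either vinclozolin at 100 mg/kg/day in DMSO (the lineage written Vin) or DMSO alone (the lineage written Con) on embryonic days 8 to 14, and the labels describe no dosing of later generations. NSt marks rats that were never restrained, and St marks rats restrained for 6 hours a day on 21 days of adolescence. Each array holds RNA pooled from 4 rats, taken as 2 mm tissue punches, so the spread between individual rats cannot be seen. A control rat and a vinclozolin rat shared a cage as a dyad, and array 1, 2 or 3 of both lineages came from the same 4 dyads, called a dyad group. The stressed CA3 groups, St-Con and St-Vin, had 3 arrays each from other animals, and all 12 CA3 arrays were scanned on the same day.

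Vinclozolin is a fungicide that blocks the androgen receptor. CA3 pyramidal cells receive mossy fibre input from dentate granule cells and excite one another and CA1 through recurrent and Schaffer collateral axons. Their transmitter release depends on the synaptic vesicle cycle, in which docking, priming, calcium sensing and recycling are carried out by separate protein families. Activity in these cells switches on immediate early genes, whose mRNA rises and falls within a short time of neuronal firing.

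Values are log2 signals of whole-transcript Affymetrix probe sets. A difference is the NSt-Vin mean minus the NSt-Con mean, so 1 unit is a doubling, and it is given with the standard error (SE) of the limma fit to the 12 CA3 arrays. An adjusted p is a Benjamini-Hochberg value over all 27342 probe sets. The 6 arrays correlated at 0.990 to 0.997, and the median SD between the 3 arrays of a group was 0.080 in NSt-Con and 0.074 in NSt-Vin. Of the probe sets, 15097 carry 1 gene symbol, and these name 14324 genes.

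The punches were not uniform in the tissue they held. Markers of CA3 and CA2 pyramidal cells ranged from -0.09 in NSt-Con 1 to 0.11 in NSt-Vin 1 around their mean over the 12 CA3 arrays. These 2 arrays, of the same dyad group, were the lowest and highest of the 12. Of the 15 markers 9 were higher in NSt-Vin, with a median of 0.087, or 0.052 after quantile normalization. The median was 0.18, 0.01 and 0 in dyad groups 1 to 3, and its part in the gene lists below was not tested. The label CA3 was borne out only in part by subfield markers: 13 of 15 CA3 and CA2 markers were higher in the CA3 than in the CA1 arrays, by a median of 0.34, but so were 9 of 10 CA1 markers, by a median of 0.47. The CA1 marker Wfs1 ranged from 9.58 to 10.87 in the 6 CA3 arrays and from 8.39 to 10.44 in the non-stressed CA1 arrays. Markers of dentate granule cells were also higher in the CA3 arrays, 5 of 6 of them, so the label is used here as the name of a punch and not of a pure subfield.

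NSt-Con 3 carried choroid plexus, the tissue that secretes cerebrospinal fluid. Its 22 choroid plexus markers averaged 1.91 above their CA3 mean, while the other 5 arrays lay between -0.35 and 0.17. Ttr, the thyroid hormone carrier of choroid plexus, was 8.26, 11.12 and 14.49 in NSt-Con and 12.04, 9.77 and 10.64 in NSt-Vin. Leptomeningeal markers were highest in the same array, at 0.32 above their mean, with Igfbp2 at 9.56 there and at 6.50 to 7.12 in the other 5 arrays. NSt-Con 2 held striatal markers, which averaged 0.89 above their mean, and NSt-Vin 3 held them at 0.49. Penk, the enkephalin precursor, was 7.99, 10.28 and 8.59 in NSt-Con and 8.30, 7.83 and 9.52 in NSt-Vin. Dentate markers were low in dyad group 3 in both lineages (-0.36 in NSt-Con 3 and -0.57 in NSt-Vin 3), against 0.12 to 0.40 in the other 4 arrays.

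**Figure D1:**
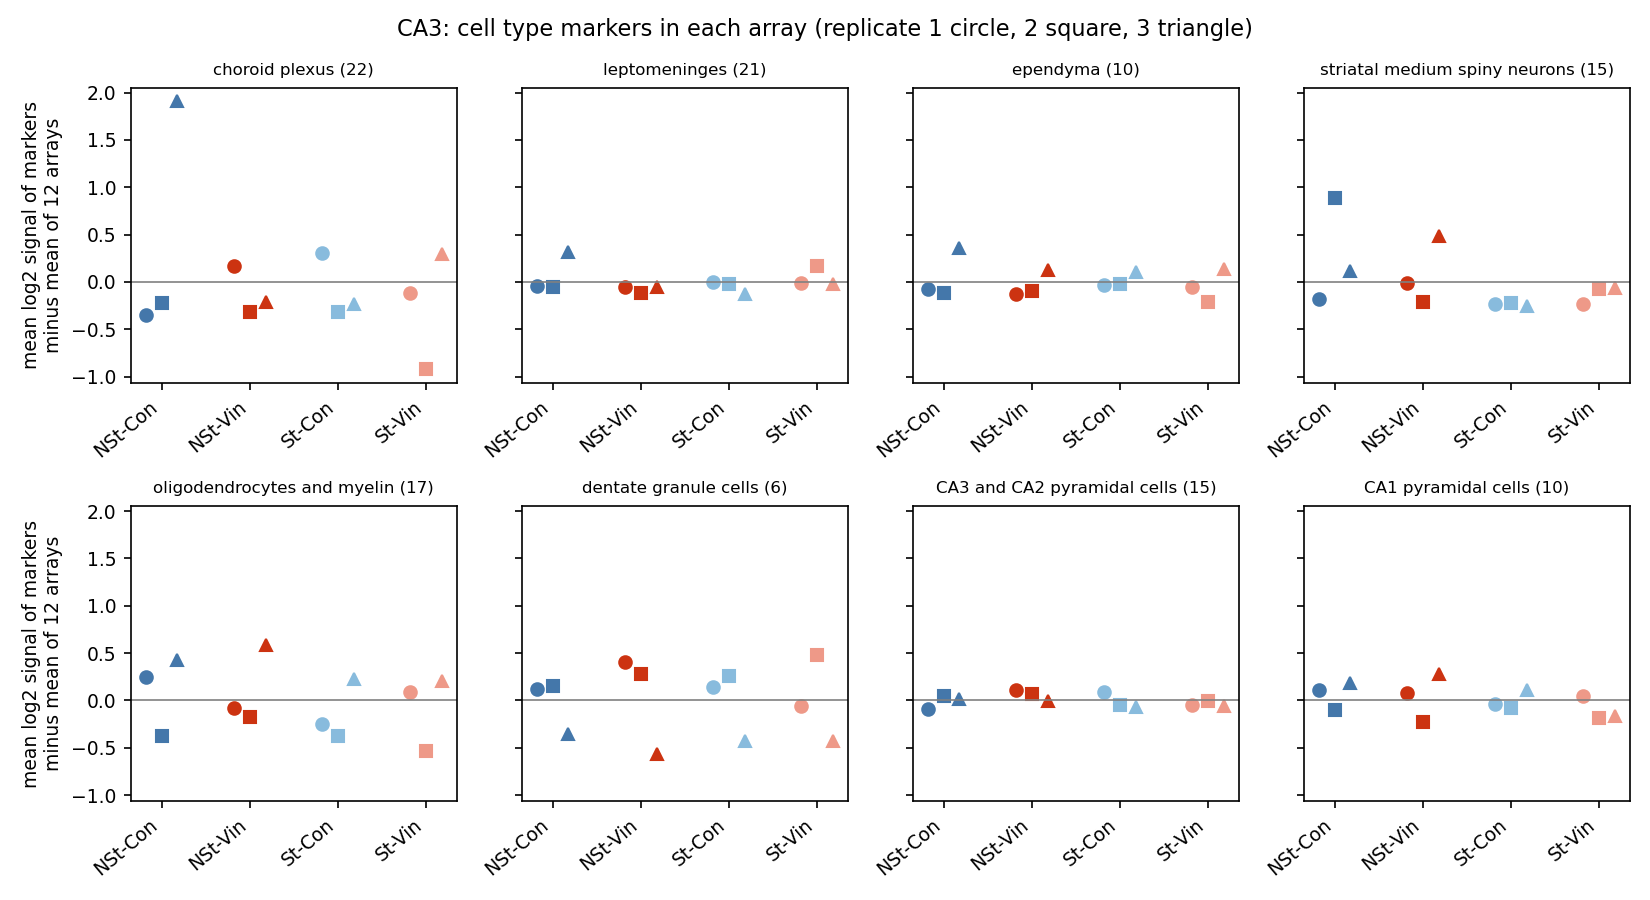
Mean log2 signal of 8 marker lists in each of the 12 CA3 arrays, as the difference from the mean of the 12 arrays; the number of measured markers is in brackets, and circles, squares and triangles are replicates 1, 2 and 3. NSt-Con 3 stands at 1.91 for choroid plexus and NSt-Con 2 at 0.89 for striatal neurons, while CA3 and CA2 markers stay within -0.09 to 0.11.

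All 22 choroid plexus markers were lower in NSt-Vin, with a median of -0.51, which became 0.09 without NSt-Con 3. The 15 striatal markers had a median of -0.21, with 3 higher, which became 0.11 without NSt-Con 2. Markers of thalamus and habenula were lower in 10 of 10, by a median of -0.09. That median was -0.03 without NSt-Con 3, without NSt-Con 2 and without NSt-Vin 3 alike. The 17 oligodendrocyte and myelin markers had a median near 0 (0.0067), made of -0.33 in dyad group 1, 0.23 in dyad group 2 and 0.15 in dyad group 3. In such bulk punches, fewer cells of a type and less RNA per cell cannot be told apart.

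No probe set passed the adjusted threshold of 0.05 in NSt-Vin against NSt-Con (0 of 27342 by limma, 0%), and the lowest adjusted p was 0.845. At an unadjusted p under 0.05 there were 1470 probe sets (5.38%), of which 802 were higher (2.93%) and 668 lower (2.44%). With the dyad group as a block, 0 passed after adjustment and 2242 (8.2%) had an unadjusted p under 0.05, or 1201 of the named genes (8.38%). Among the 14324 named genes, 752 (5.25%) were under 0.05, 519 of them higher (3.62%) and 233 lower (1.63%). The higher share of these genes was 69%, and 68.2% after quantile normalization. Every gene value below is therefore a description of these 6 arrays. The share of genes under an unadjusted 0.05 is close to the threshold itself.

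The direction of the difference varied with expression level. Of all named genes 57.2% were higher in NSt-Vin, but the share was 85.4% in the brightest of 5 equal classes of genes by level and 37.8% in the dimmest. The median difference was 0.07 in the brightest class and -0.017 in the dimmest. It was largest in dyad group 1 (0.13 in the brightest class), smaller in dyad group 2 (0.09) and 0 in dyad group 3. NSt-Vin 1 also had the widest spread of signals of the 12 arrays, with an SD over probe sets of 1.69 against 1.59 to 1.67 in the others. After quantile normalization of the 12 arrays, which gives them all the same distribution, 61.4% of the brightest class and 52.0% of the dimmest were higher, with medians of 0.018 and 0.0028. Of the 25 synaptic vesicle genes described below, 18 lie in the brightest class, and the lists below are therefore given as deposited and after quantile normalization.

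**Figure D2:**
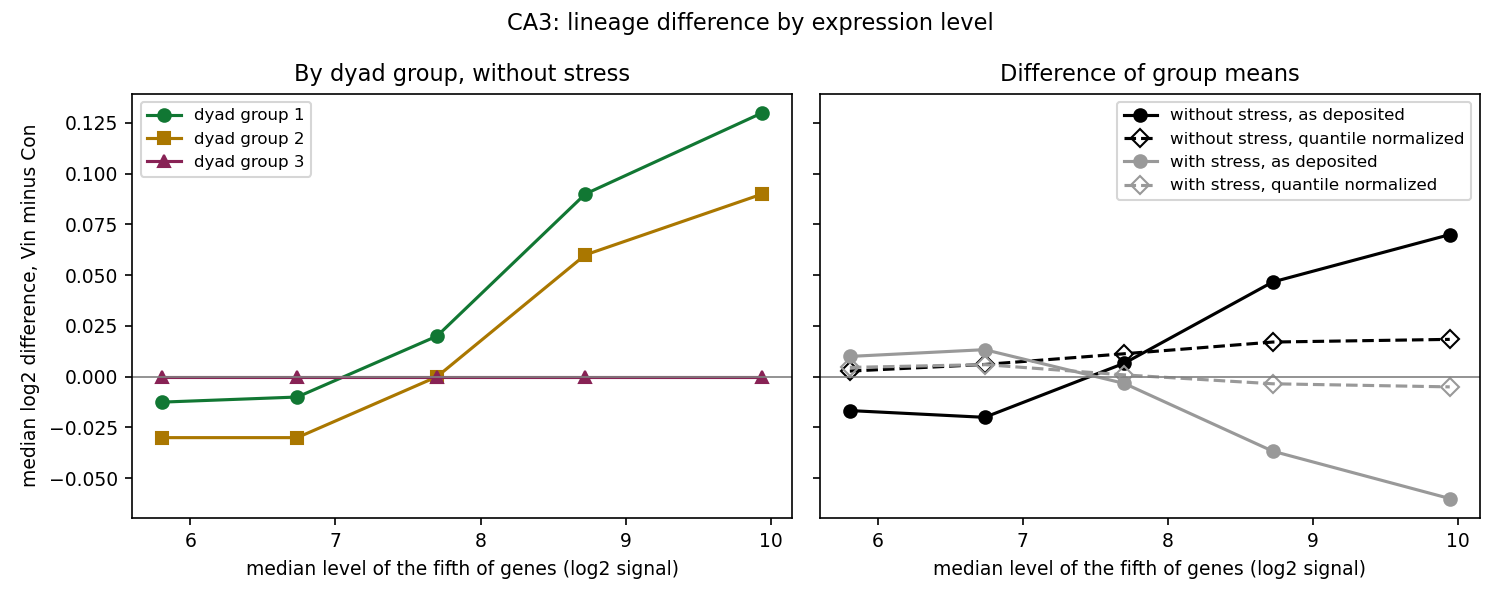
Median log2 difference of Vin minus Con in 5 classes of genes by level, plotted against the median level of the class. On the left, the non-stressed difference climbs with level in dyad groups 1 and 2 and stays at 0 in dyad group 3; on the right, the non-stressed difference as deposited reaches 0.07 and the stressed one -0.06 in the brightest class, and quantile normalization brings them to 0.018 and -0.005.

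Among the genes higher in NSt-Vin, Epha5 had the smallest p. It encodes a receptor for ephrin-A ligands that guides axons and acts at synapses. Its level was 10.06, 10.13 and 10.12 in NSt-Con and 10.39, 10.41 and 10.30 in NSt-Vin. The NSt-Vin arrays lay above all 9 other CA3 arrays, whose highest value was 10.26. The difference was 0.26 ± 0.051 (SE, n = 3 and 3, limma adjusted p = 0.845), and it was 0.21 after quantile normalization. In 178 genes (1.24%) the 3 NSt-Vin arrays lay above the other 9 in this way, and in 84 (0.586%) below them.

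The genes next in p were of several kinds. Dync1i1, an intermediate chain of the dynein motor, was 9.94, 9.93 and 9.99 in NSt-Con and 10.25, 10.27 and 10.09 in NSt-Vin. Wasf1, an activator of actin branching at synapses, was 10.61, 10.64 and 10.65 in NSt-Con and 10.92, 10.81 and 10.94 in NSt-Vin. In both genes the groups did not overlap, and the differences were 0.25 ± 0.056 and 0.26 ± 0.062. Tbc1d25, a GTPase-activating protein for Rab proteins, was 7.81, 7.78 and 7.62 in NSt-Con and 8.16, 7.99 and 7.96 in NSt-Vin. It lies in the middle class by level, and its difference of 0.30 was 0.28 after quantile normalization. Pias3, a SUMO ligase, had a difference of 0.23 in both settings, and its 3 dyad groups gave 0.24, 0.23 and 0.23. Proser1 (0.26) and Nrip3 (0.28) were also among the 8 smallest p-values in this direction.

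Genes without overlap between the groups and with the largest positive differences were Retsat, Pop5, Neurod6, Pno1 and Gdap1l1, besides Tbc1d25. Retsat, an oxidoreductase of retinol, was 9.13, 9.14 and 9.22 in NSt-Con and 9.84, 9.49 and 9.33 in NSt-Vin. The NSt-Vin arrays spread widely, and the difference of 0.39 was made of 0.71, 0.35 and 0.11 in dyad groups 1 to 3. Neurod6, a transcription factor of forebrain pyramidal neurons, was 10.39, 10.43 and 10.77 in NSt-Con and 10.81, 10.79 and 10.96 in NSt-Vin. It differed by 0.42, 0.36 and 0.19 within the dyad groups (limma adjusted p = 0.845, and 0.601 with the block). Pop5, a subunit of the RNA-processing ribonucleases P and MRP, and Pno1, a factor of small ribosomal subunit assembly, differed by 0.39 and 0.31. In all, 786 genes (5.49%) had all NSt-Vin arrays above all NSt-Con arrays, and 456 (3.18%) the reverse.

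**Figure D3:**
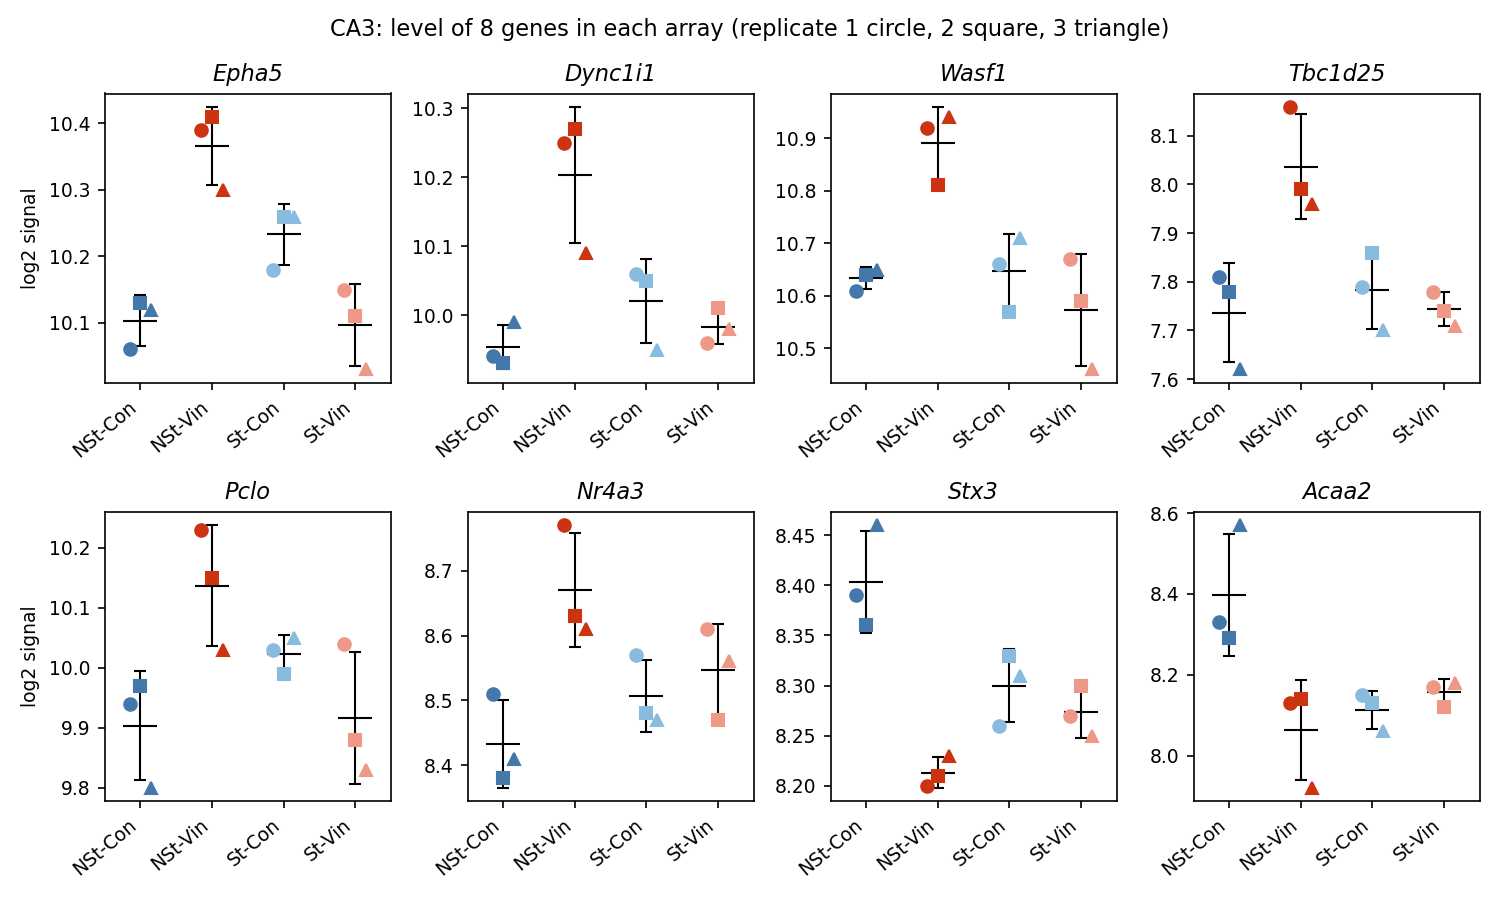
Log2 signal of 8 genes in each CA3 array, with the group mean (bar) and SD between the 3 arrays (whisker); circles, squares and triangles are replicates 1, 2 and 3. Epha5, Dync1i1, Wasf1 and Tbc1d25 stand above the other 9 arrays in NSt-Vin, Stx3 stands below them, and the Acaa2 values of NSt-Con stand above the other 9.

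Of the 8 genes with the smallest p among those lower in NSt-Vin, 5 lay in the 2 dimmest classes by level. Or5h25b, an odorant receptor gene, was 6.81, 6.55 and 6.38 in NSt-Con and 6.02, 6.19 and 6.14 in NSt-Vin, a difference of -0.46 ± 0.095 (adjusted p = 0.845). Serpinb3, Prl8a7, Sp100 and Mpzl3 were also dim, with differences of -0.28, -0.27, -0.20 and -0.24. Stx3, a syntaxin of membrane fusion, was 8.39, 8.36 and 8.46 in NSt-Con and 8.20, 8.21 and 8.23 in NSt-Vin. Its NSt-Vin arrays lay below all 9 other CA3 arrays, and the difference of -0.19 ± 0.044 was -0.20 after quantile normalization. Acaa2, a mitochondrial thiolase of fatty acid oxidation, was 8.33, 8.29 and 8.57 in NSt-Con and 8.13, 8.14 and 7.92 in NSt-Vin. Here the NSt-Con arrays lay above the other 9, as in 45 genes (0.314%), with 35 (0.244%) below, and the difference was -0.33 ± 0.078, or -0.25 without NSt-Con 3.

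Emcn, an endothelial surface sialomucin, was 7.55, 7.61 and 7.50 in NSt-Con and 7.37, 7.32 and 7.30 in NSt-Vin. Of the 15 endothelial markers, 4 were higher and 11 lower (median -0.043, range of the list's mean 0.005 to 0.067 in NSt-Con and -0.098 to -0.002 in NSt-Vin), and after quantile normalization 3 were higher (-0.061). The list's median was -0.07 without NSt-Vin 1 and -0.018 without NSt-Vin 3, and its part in the Emcn difference was not tested. The largest negative differences without overlap included Sulf1, a heparan sulphate endosulphatase, and Fmod, a collagen-binding proteoglycan. Fmod was 5.90, 5.82 and 6.70 in NSt-Con and 5.76, 5.71 and 5.68 in NSt-Vin. Its difference of -0.42 was -0.14 without NSt-Con 3, the array with choroid plexus and leptomeningeal markers, and that of Sulf1 went from -0.45 to -0.13. Kcnf1, a modulatory potassium channel subunit, was 8.44, 8.49 and 8.17 in NSt-Con and 8.04, 8.12 and 8.05 in NSt-Vin, and its difference of -0.30 was -0.40 without that array. Syt10, a synaptotagmin, differed by -0.30, and its highest value, 8.15, was in the striatum-rich NSt-Con 2, without which the difference was -0.15.

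On the values as deposited, the synaptic vesicle cycle had the highest median difference of the 13 function lists, 0.120 beside 0.118 for cholesterol synthesis. After quantile normalization the neurotrophin (0.10), cholesterol synthesis (0.082) and immediate early (0.076) lists stood above it. Of its 25 measured genes 22 were higher in NSt-Vin, with a median of 0.12. In the brightest class of genes, which holds 18 of the 25, 85.4% were higher, with a median of 0.07. After quantile normalization 22 of the 25 were again higher, with a median of 0.073. In that setting 56.4% of all genes were higher, and 61.4% of the brightest class, whose median was 0.018. As deposited, the list's median was 0.18, 0.10 and 0.06 in dyad groups 1 to 3, and 0.062 without NSt-Vin 1. Of the 25, 6 (24.0%) had an unadjusted p under 0.05, all higher, against 5.25% of all genes and 8.66% of the brightest class. After quantile normalization there were 3, against 4.2% of the brightest class. With the block there were 9 of 25, among them Syt2, which was lower, against 8.38% of all genes. No share of the brightest class is given for the block. None passed after adjustment.

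The largest positive differences of the list were in 2 genes of the active zone. Pclo, which encodes the scaffold piccolo, was 9.94, 9.97 and 9.80 in NSt-Con and 10.23, 10.15 and 10.03 in NSt-Vin. Rims1, which tethers calcium channels and vesicles, was 10.12, 10.01 and 10.00 in NSt-Con and 10.32, 10.23 and 10.16 in NSt-Vin. The differences were 0.23 ± 0.070 and 0.19 ± 0.059, both with adjusted p = 0.845, and the groups did not overlap. Other active zone genes differed less, Bsn, which encodes the scaffold bassoon, by 0.10 (0 without NSt-Con 3) and Rims2 by 0.053. Unc13a, a priming factor, differed by 0.13, and after quantile normalization by 0.073.

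The other members with an unadjusted p under 0.05 were Syn1, Rab3a and Syt1, with differences of 0.18, 0.15 and 0.13. Syn1, the synapsin that ties vesicles to the cytoskeleton, was 10.25, 10.21 and 10.09 in NSt-Con and 10.46, 10.44 and 10.20 in NSt-Vin, so that the groups overlapped in NSt-Vin 3 alone. Rab3a, the GTPase of vesicle docking, was 10.74, 10.68 and 10.69 in NSt-Con and 10.99, 10.81 and 10.77 in NSt-Vin. Syt1, the fast calcium sensor, was 11.85, 11.77 and 11.82 in NSt-Con and 12.01, 11.95 and 11.87 in NSt-Vin. In each gene the difference was positive in 3 of 3 dyad groups, which holds for 18% of all genes (9.82% were lower in all 3) and for 15 of the 25 in this list. The 3 genes of the list with a lower mean in NSt-Vin were Sypl1 (-0.09), Syt2 (-0.26) and Sv2c (-0.39). Sv2c, a vesicle protein of striatum, was 7.45, 8.88 and 7.59 in NSt-Con, with the high value in the striatum-rich NSt-Con 2, and the difference was 0.06 without that array.

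**Figure D4:**
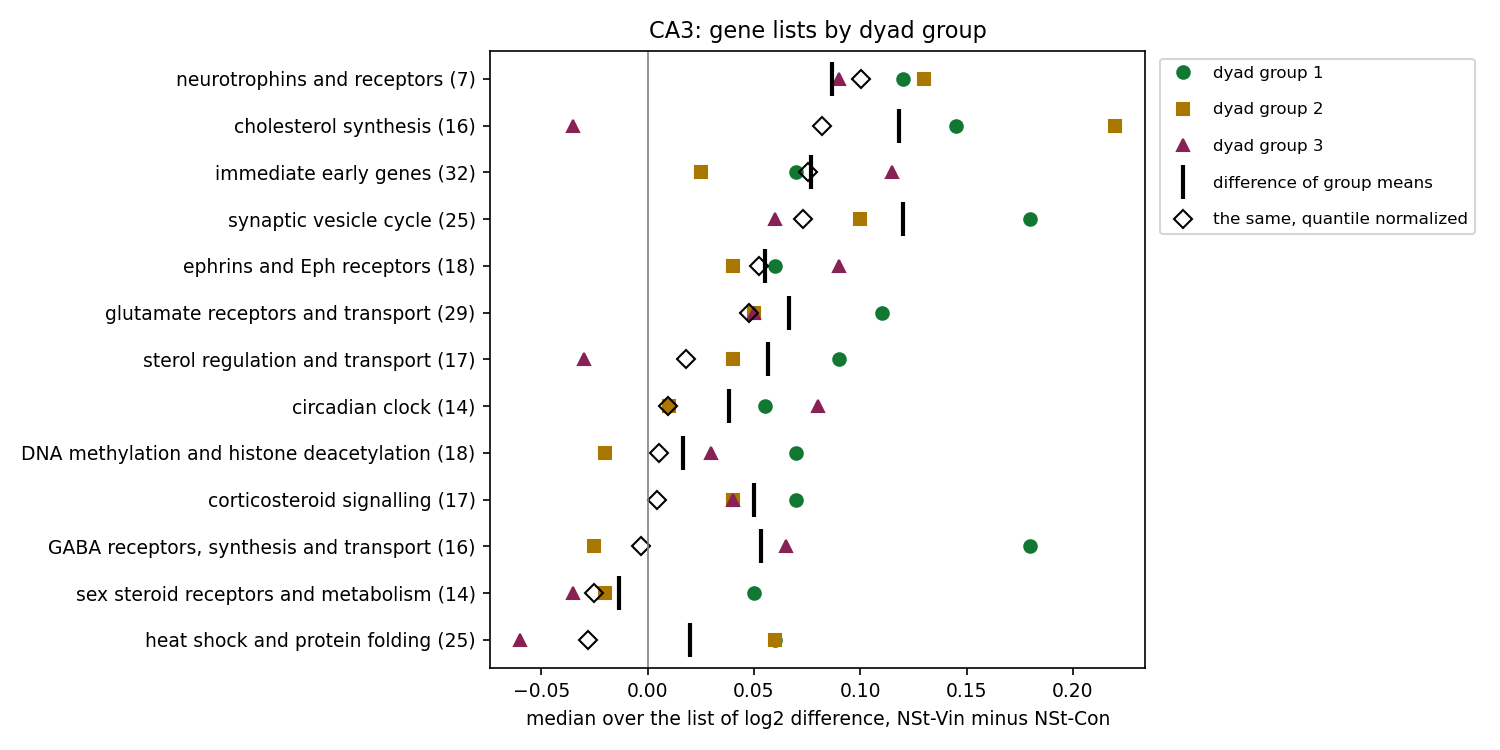
Median log2 difference of NSt-Vin minus NSt-Con over 13 function lists (measured genes in brackets), within each dyad group, for the group means and for the group means after quantile normalization. Synaptic vesicle, immediate early, neurotrophin, ephrin, glutamate, circadian clock and corticosteroid lists lie above 0 in all 3 dyad groups, and cholesterol synthesis lies at -0.035 in dyad group 3.

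Glutamate receptors and transporters were higher in 24 of 29, with a median of 0.067, and in 22 of 29 with 0.048 after quantile normalization. Of the 29, 15 lie in the brightest class, where 85.4% of genes were higher as deposited, with a median of 0.07. After quantile normalization 61.4% of that class were higher, with a median of 0.018. Grin1, the obligatory NMDA receptor subunit, was 10.14, 10.12 and 10.07 in NSt-Con and 10.40, 10.21 and 10.21 in NSt-Vin, a difference of 0.16 ± 0.065 (adjusted p = 0.845), or 0.10 after quantile normalization. Slc17a7, the vesicular glutamate transporter VGLUT1, was 11.73, 11.66 and 11.62 in NSt-Con and 11.93, 11.85 and 11.67 in NSt-Vin. Grik4, a kainate receptor subunit of CA3 synapses, was 8.89, 8.98 and 8.91 in NSt-Con and 9.36, 9.46 and 8.80 in NSt-Vin, high in 2 arrays and lowest of all in the third. Grm8, a presynaptic metabotropic receptor, went the other way (-0.28). Of the list, 2 (6.90%) had an unadjusted p under 0.05, a share near the 5.25% of all genes, and 5 of 29 with the block, against 8.38%. The list median was 0.005 without NSt-Vin 1, with 16 of 29 higher, 0.023 without NSt-Con 3 and 0.11 without NSt-Con 1. GABA receptors, synthesis and transport were higher in 12 of 16 (median 0.053) as deposited and in 7 of 16 (median -0.0031) after quantile normalization, so no direction is given for them.

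Ephrins and Eph receptors were higher in 15 of 18, with a median of 0.055, and in 16 of 18 with 0.052 after quantile normalization. Of all genes 57.2% and 56.4% were higher in these settings. The median was 0.024 without NSt-Vin 1, 0.029 without NSt-Con 2, 0.035 without NSt-Vin 3 and 0.084 without NSt-Vin 2. Besides Epha5, Epha8 was 7.55, 7.75 and 7.73 in NSt-Con and 7.84, 8.04 and 7.78 in NSt-Vin. Its groups did not overlap, and it differed by 0.21 ± 0.097 (adjusted p = 0.845). Of the list, 1 gene (5.56%) had an unadjusted p under 0.05, a share near that of all genes, and 2 of 18 with the block.

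Immediate early genes were higher in 26 of 32, with a median of 0.077, and in 27 of 32 with 0.076 after quantile normalization. The shares over all genes were 57.2% and 56.4%. The median was 0.07, 0.025 and 0.12 in dyad groups 1 to 3. It rested on NSt-Vin 3, without which it was 0.0017, with 16 of 32 higher. Of the 32, 2 (6.25%) had an unadjusted p under 0.05, a share near the 5.25% of all genes, and 6 of 32 with the block, against 8.38%. Nr4a3, an orphan nuclear receptor of the activity response, was 8.51, 8.38 and 8.41 in NSt-Con and 8.77, 8.63 and 8.61 in NSt-Vin, a difference of 0.24 ± 0.061 (adjusted p = 0.845). Gadd45b, which takes part in active DNA demethylation, was 7.02, 6.94 and 7.03 in NSt-Con and 7.18, 7.05 and 7.17 in NSt-Vin.

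Other members differed more between the arrays of a group. Junb, an AP-1 subunit, was 7.09, 7.20 and 7.15 in NSt-Con and 7.21, 7.29 and 7.51 in NSt-Vin. Npas4, an activity-dependent transcription factor, was 7.29, 7.69 and 7.92 in NSt-Con and 7.28, 7.79 and 8.56 in NSt-Vin. Its difference of 0.24 ± 0.31 was smaller than its SE and came from NSt-Vin 3, without which it was -0.098. Fos was 5.90, 6.15 and 6.09 in NSt-Con and 6.00, 6.21 and 6.19 in NSt-Vin. Dusp6, a phosphatase of ERK, was 9.21, 8.90 and 9.86 in NSt-Con and 9.65, 9.45 and 10.07 in NSt-Vin. Both lineages ranked the dyad groups in the same order in Dusp6, and the difference of 0.40 had adjusted p = 0.845 without the block and 0.601 with it. It was 0.67 without NSt-Con 3, the array with choroid plexus, 0.19 without NSt-Con 2 and 0.23 without NSt-Vin 3. Nptx2, a secreted pentraxin that clusters AMPA receptors, differed by 0.13, and Ier3 by -0.11 with no overlap between the groups.

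Bdnf, the neurotrophin that signals through TrkB, was 7.75, 7.72 and 7.65 in NSt-Con and 8.16, 8.04 and 7.65 in NSt-Vin. It was high in 2 arrays and equal in dyad group 3, for a difference of 0.24 ± 0.12 (adjusted p = 0.845). The 7 neurotrophins and receptors, among them Bdnf, which is also in the immediate early list, were all higher as deposited (median 0.087), and 6 of 7 after quantile normalization (0.10). Leaving out NSt-Con 2 gave a median of 0.053, and leaving out NSt-Vin 3 gave 0.047.

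Cholesterol synthesis enzymes were higher in 15 of 16, with a median of 0.12, and in 15 of 16 with 0.082 after quantile normalization. Of the 16, 7 lie in the brightest class, where 85.4% of genes were higher as deposited and 61.4% after quantile normalization. The difference was in dyad groups 1 and 2, where 15 and 16 of the 16 genes were higher (medians 0.145 and 0.22), and not in dyad group 3, where 4 were (-0.035). Leaving out NSt-Con 2 gave a median of 0.073, and leaving out NSt-Vin 3 gave 0.18. Ebp, the sterol isomerase of the pathway, was 7.94, 7.87 and 8.04 in NSt-Con and 8.09, 8.22 and 8.10 in NSt-Vin, a difference of 0.19 ± 0.060 (adjusted p = 0.845). Sqle, the squalene epoxidase, was 9.61, 9.46 and 9.62 in NSt-Con and 9.75, 9.78 and 9.59 in NSt-Vin. Nsdhl, a sterol dehydrogenase, was 9.38, 9.04 and 9.14 in NSt-Con and 9.60, 9.56 and 9.11 in NSt-Vin, with overlap between the groups. Acat2, a thiolase at the head of the pathway, differed by 0.16. Of the list, 2 (12.5%) had an unadjusted p under 0.05, against 5.25% of all genes, 1 after quantile normalization and 3 of 16 with the block. Oligodendrocyte markers also differed between the dyad groups, and their part in the sterol values was not tested. Among regulators, the sensor Insig1 was higher in 3 of 3 dyad groups, by 0.11 as deposited and 0.047 after quantile normalization. The transcription factor Srebf2 differed by 0.14 and 0.077 in these settings, and by 0.053 without NSt-Vin 1. Of 17 genes of sterol regulation and transport 14 were higher as deposited (median 0.057) and 11 after quantile normalization (0.018), and the median was 0.015 without NSt-Vin 1.

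Promoters are shown for 3 genes of these lists, to let the reader see the motifs searched. They come from RefSeq (GRCr8) and are the 250 bases before the transcription start, while the search covered the 300 bases from 250 before to 50 after it. Both strands were searched for the cAMP response element CRE (TGACGTCA), its core (TGACG, which every CRE holds), the CCAAT box (CCAAT), a sterol response element (TCACNCCAC) and the CArG box. Capitals mark the CRE in Syn1, the core in Junb and the CCAAT boxes, on either strand, in Nsdhl.
Syn1, chrX:3725495-3725744, plus strand: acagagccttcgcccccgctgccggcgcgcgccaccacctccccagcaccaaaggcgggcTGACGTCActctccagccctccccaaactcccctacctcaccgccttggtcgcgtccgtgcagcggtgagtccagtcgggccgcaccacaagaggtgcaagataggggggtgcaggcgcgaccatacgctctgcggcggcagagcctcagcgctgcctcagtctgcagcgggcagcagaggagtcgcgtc
Junb, chr19:40080876-40081125, plus strand: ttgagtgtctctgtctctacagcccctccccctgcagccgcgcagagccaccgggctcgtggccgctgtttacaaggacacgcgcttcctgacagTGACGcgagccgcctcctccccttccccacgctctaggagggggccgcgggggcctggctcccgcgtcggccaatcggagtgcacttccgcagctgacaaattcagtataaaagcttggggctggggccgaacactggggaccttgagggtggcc
Nsdhl, chrX:155817110-155817359, plus strand: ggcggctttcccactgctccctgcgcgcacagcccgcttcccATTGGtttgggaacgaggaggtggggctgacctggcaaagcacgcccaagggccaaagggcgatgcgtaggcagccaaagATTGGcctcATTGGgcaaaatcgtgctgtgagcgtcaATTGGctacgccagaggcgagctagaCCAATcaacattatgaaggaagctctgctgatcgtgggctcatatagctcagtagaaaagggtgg

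A CRE was in 1.83% of all 33469 promoters, in 4 of the 24 immediate early genes matched and in 2 of the 20 synaptic vesicle genes. The core was in 21.2% of all promoters, in 16 of 24 immediate early genes, in 8 of 20 synaptic vesicle genes and in 6 of 13 cholesterol genes. The CCAAT box was in 37.5% of all promoters and in 10 of the 13 cholesterol genes, with 5 matches in Nsdhl. The CArG box was in 1.64% of all promoters and 3 of 24 immediate early genes. The sterol response element was in 1.12% of all and in none of the 13 cholesterol promoters. A match says only that the letters are there.

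Steroid and stress signalling genes were mixed. Of 17 genes of corticosteroid signalling 10 were higher as deposited (median 0.05) and 9 after quantile normalization (0.0044), and the median was 0.0033 without NSt-Con 2 and 0.095 without NSt-Con 1. Fkbp5, a co-chaperone induced by glucocorticoids, was 8.72, 8.79 and 8.67 in NSt-Con and 9.08, 9.01 and 8.80 in NSt-Vin, a difference of 0.24 ± 0.10 (adjusted p = 0.845) without overlap. The glucocorticoid receptor Nr3c1 differed by 0.077 ± 0.079, or 0.017 after quantile normalization, and the mineralocorticoid receptor Nr3c2 by 0.19 ± 0.12. Crh, the corticotropin-releasing hormone, was 7.01, 7.02 and 6.96 in NSt-Con and 6.89, 6.92 and 6.91 in NSt-Vin. Of 14 sex steroid receptors and enzymes 5 were higher as deposited (median -0.013) and 4 after quantile normalization (-0.025). Without NSt-Con 3 it was 8 of 14 (0.018), and the median was also above 0 without NSt-Con 2 (0.0042) and without NSt-Vin 2 (0.0058), so no direction is given for the list. Esr1, the oestrogen receptor alpha, was near the low end of the scale (5.62 to 5.69 over the 6 arrays). Of 18 DNA methylation and histone deacetylation genes 12 were higher as deposited and 10 after quantile normalization, with Dnmt1 at 0.077 ± 0.062 and Dnmt3a at -0.01 ± 0.044. Of the circadian clock 8 of 14 were higher in both settings. Of heat shock and protein folding 14 of 25 were higher as deposited (median 0.02) and 10 after quantile normalization (-0.028), against 20 without NSt-Con 3 (0.058).

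The lineage difference was set against that of the stressed rats, which shares no array with it. In the interaction, 0 of 27342 probe sets passed after adjustment by limma, and 1805 (6.6%) had an unadjusted p under 0.05. Epha5 was 10.18, 10.26 and 10.26 in St-Con and 10.15, 10.11 and 10.03 in St-Vin. Its stressed difference was -0.14, and the interaction was 0.40 ± 0.072 (adjusted p = 0.752), or 0.27 after quantile normalization. The interaction contains the non-stressed difference by which Epha5 was singled out, so it is no separate support for it. Nptx2 differed by -0.18 under stress, an interaction of 0.31 (adjusted p = 0.752). The synaptic vesicle list was higher in 2 of 25 under stress as deposited (median -0.06) and in 11 of 25 after quantile normalization (-0.0062). The brightest class of all genes had a stressed median of -0.06 as deposited and -0.005 after quantile normalization, close to the list in both settings. Immediate early genes were higher in 20 of 32 under stress (median 0.02), and in 19 with 0.031 after quantile normalization. Cholesterol enzymes were higher in 6 of 16 under stress as deposited (-0.025) and in 12 of 16 after quantile normalization (0.016), so no stressed direction is given for them.

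**Figure D5:**
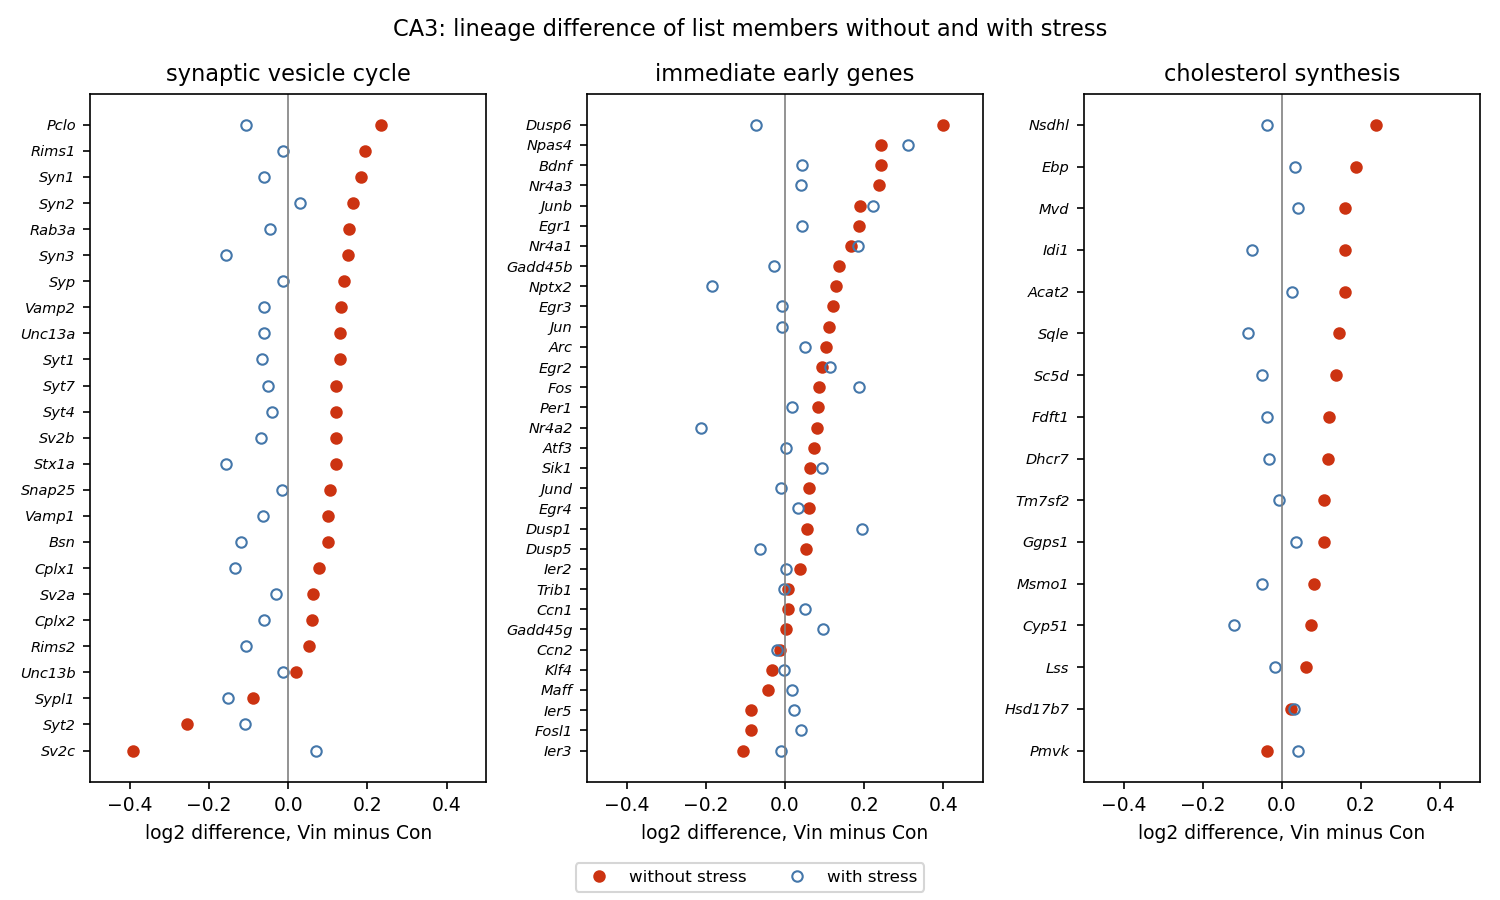
Log2 difference of Vin minus Con for each measured gene of 3 lists, without stress (filled) and with stress (open), on the values as deposited. Most filled points lie right of 0, among them 22 of 25, 26 of 32 and 15 of 16, while open points of the synaptic vesicle list lie left of 0 in all but 2 genes.

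The other 3 areas came from the same animal pools, so they are no independent replicates of CA3. The test of the CA3 difference against the mean of the other areas gave 0 of 27342 probe sets after adjustment by limma and 827 (3.02%) at an unadjusted p under 0.05. Immediate early genes had median differences of 0.05 in the basolateral amygdala, 0.073 in motor cortex and 0.08 in CA1. Nr4a3 differed by 0.21, 0.14 and 0.11 in these areas, and Junb by 0.18, 0.18 and 0.16. Retsat, at 0.39 in CA3, differed by 0.33, 0.37 and 0.44, and Acaa2, at -0.33, by -0.20, -0.16 and -0.20. Epha5 differed by 0.027, 0.09 and 0.023, and its CA3 difference exceeded their mean by 0.22 (limma unadjusted p = 0.18). It was singled out by its small p in CA3, so this excess does not show that the difference is particular to CA3. The synaptic vesicle list had medians of 0.01, 0.075 and 0.037, and cholesterol synthesis 0.0017, 0.052 and 0.047. Choroid plexus markers had medians of -0.44 in motor cortex, -0.82 in CA1 and -0.018 in the amygdala. In CA3 their median was 0.09 without NSt-Con 3. Values of single arrays are not given for the other areas, and the motor cortex comparison holds 5 arrays. Whether single arrays make these medians was not tested.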

How the data were processed

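Each array measured RNA pooled from 4 rats. The deposited values are log2 signals of 27342 probe sets, made with Partek and RMA per the submitters' processing notes, with versions and genome build not given in the sources used here. Precision is set by the number of arrays, since they have no depth. Group means of the 12 CA3 arrays were fitted by lmFit and eBayes of limma 3.58.1 in R 4.3.3, without a block, as two-sided tests with Benjamini-Hochberg adjustment over all probe sets and a threshold of 0.05. The pools hold different animals. The replicate number marks a dyad group per the labels; deviations of same-numbered NSt-Con and NSt-Vin arrays correlated at 0.188, 0.280 and 0.344 and those of other pairs at -0.288 to 0.050, so the dyad group was also fitted as a block. In motor cortex and CA1, 1 array each equals the mean of the other arrays of its group and was left out, which leaves 46 of 48.

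A gene is the mean of its probe sets, with the lowest p where it has several (499 of 14324 genes, Insig1 and Esr1 among those named). The tests included 323 probe sets with several symbols and 11922 with none, which stay unnamed. The comparison, the 30 gene lists (13 of functions, 17 of cell types) and the rule for named genes were chosen with earlier results of these data known. The rule took the 8 smallest p-values in each direction, the 6 largest differences without overlap in each direction, up to 6 members of each function list, 3 of each cell type list, and fixed genes. Junb, Dusp6, Sv2c, Syt2, Sypl1, Bsn and Rims2 were named after their values were seen, and the test against other areas was added then. Alternatives were a filter below the 30th percentile, the replicate block, quantile normalization, trend and robust eBayes, the 6 arrays alone, and leaving out arrays. On data simulated with the spread of these arrays, 70% of changes of 0.5 and 98% of changes of 1.0 on the log2 scale were recovered, 50 probe sets each. The main fit also made 11 false calls there. The simulated noise was independent between arrays, without dyad groups or tissue differences. No change below 0.5 was simulated, so recovery of smaller differences is not known.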

Additional observations from a re-analysis of the deposited data

Results flagged for a closer look

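As deposited, the synaptic vesicle list moved in opposite directions without and with stress in every dyad group. Its median difference was 0.18, 0.10 and 0.06 in the 3 non-stressed dyad groups and -0.11, -0.03 and -0.08 in the 3 stressed ones, and the median of the difference between them was 0.17. After quantile normalization that median was 0.081, and the stressed difference had a median of -0.0062 with 11 of 25 genes higher. Of the 25, 2 then had an interaction with an unadjusted p under 0.05. As deposited it was 7 of 25, beside 6.6% of all probe sets. No share of all probe sets is given for the interaction after quantile normalization. The glutamate receptor and transport list did the same as deposited, with 0.11, 0.05 and 0.05 against -0.03, -0.05 and -0.13, and a median of 0.13. After quantile normalization this last median was 0.070, and the stressed difference had a median of -0.028 with 11 of 29 genes higher. Of the 29, 0 then had an interaction with an unadjusted p under 0.05, against 5 as deposited, beside the same 6.6% of all probe sets as deposited. For neither list was the difference itself tested. Of the 25 and 29 genes, 18 and 15 lie in the brightest class by level, which had medians of 0.07 and -0.06 over all genes in the same comparisons, and 10 of the 29 glutamate genes lie in the 3 dimmest classes.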

How the results depend on the processing

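The count of 0 probe sets past the adjusted threshold held with the filter on low values, the replicate block, quantile normalization, trend and robust eBayes and the 6 non-stressed arrays alone. Leaving out 1 array gave 0 to 1, with 1 without NSt-Con 2 and 1 without NSt-Con 3. There was 1 without dyad group 3 and 6 with the replicate block without NSt-Con 3; none of these carries a gene symbol, and 5 of the 6 hold the same values. The interaction kept 0, or 1 without NSt-Con 2. At an unadjusted p under 0.05 the count of 1470 became 2242 with the replicate block, 964 with the 6 arrays alone, 2570 without dyad group 3 and 3391 with the replicate block without NSt-Con 3. Leaving out 1 array gave 694 (without NSt-Vin 1) to 2668 (without NSt-Vin 3). The other alternatives gave counts within 1.5 times of it.

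The immediate early median was 0.0017 without NSt-Vin 3 and 0.0017 to 0.098 over the arrays left out, and 0.028 both without dyad group 3 and with the replicate block without NSt-Con 3. The medians of synaptic vesicle (0.062 to 0.17) and cholesterol synthesis genes (0.073 to 0.22) stayed positive in 13 of 13 alternatives. That of choroid plexus was negative in 10 of 13, and positive in each alternative without NSt-Con 3 (0.086 to 0.12). The replicate block, trend and robust eBayes and the non-stressed arrays alone keep the main differences, so they cannot change a median. Leaving out dyad group 3 gave the same medians as the replicate block without NSt-Con 3. The 13 are therefore not 13 separate checks. Of 62 named genes, 59 reversed in no alternative run and 0 passed in any. Many of the 62 have groups that do not overlap, and leaving out arrays cannot reverse such genes. Alternatives that keep the differences of the main fit cannot reverse any gene. The count of genes that did not reverse was therefore largely fixed in advance. Leaving out NSt-Con 3 or NSt-Vin 1 gave 0 for Bsn. Sv2c was 0.06 without NSt-Con 2 (-0.66 to 0.06 over the arrays left out), Npas4 -0.098 without NSt-Vin 3 (-0.098 to 0.54), and Dnmt3a 0.0017 after quantile normalization and 0.012 without NSt-Vin 2 (-0.028 to 0.012). The cause of these changes was not tested. The block changed no other call. Signal precision is limited by 3 arrays a group, whose median SD was 0.074 to 0.080.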
